A study of Mus musculus with 18 samples.

Results

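The genes described here carry out the licensing of DNA replication origins and the work of the replication fork. They were taken by name from a list of 46 genes whose rule uses no measured value. The list itself was chosen with earlier results of these data known. Each gene was represented by the probe set with the highest mean over all arrays. Only probe sets that the platform annotation ties to that symbol alone were used. Of the 46, 45 had such a probe set out of 18194 genes named on the array, and Chaf1a, a subunit of a chromatin assembly factor, is not analysed here. All 45 passed the filter on low signal, which 11897 of the 18194 genes passed.

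Replication is prepared in G1. The origin recognition complex and its partners Cdc6 and Cdt1 then load the Mcm2 to Mcm7 helicase onto DNA, a step called licensing. In S phase the kinase Cdc7 with Dbf4, the GINS complex and Cdc45 turn the loaded helicase into a moving fork, where primase and the replicative polymerases copy the strands and a sliding clamp holds the polymerases in place. Most of these genes are transcribed under E2F control as cells pass from G1 into S, and cultures that stop dividing, including senescent ones, are known for low levels of their transcripts.

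Total RNA on Affymetrix arrays came from lymph-node cells of 3 primary B-cell lymphomas, numbered 4146, 4936 and 5043 and given as biological replicates, that arose in Eµ-myc transgenic mice on a C57/Bl6 background. The ages of the mice are not given in the sources used here. In all groups, controls included, the lymphomas lacked Suv39h1, a histone H3 lysine methyltransferase, and carried retroviral Suv39h1-ERT2, a form of the enzyme that 4-hydroxytamoxifen (4-OHT) switches on, and retroviral Bcl2, which blocks apoptosis. The groups were untreated cells (3 arrays), cells after 5 days of the DNA-damaging drug adriamycin (ADR, 3 arrays), cells after 5 days of ADR with 4-OHT (3 arrays), and cells grown for another 14 days without either agent. That last set held the outgrowth of the ADR cultures (2 arrays, since the column for lymphoma 5043 held no values and its label reports failed quality control) and the outgrowth of the ADR with 4-OHT cultures, sorted by size into morphologically small and big cells (3 arrays each). The comparisons ask how the response to the drug differs with Suv39h1 switched on, and how later regrowth without 4-OHT differs after such treatment. No group received 4-OHT without ADR. Suv39h1 had no probe set in the annotation used, so the deletion and the transgene could not be checked on these values.

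Signal values are log2, and each lymphoma had been set to the same median at every probe set (45101 of 45101) before deposit. A value is therefore relative to the median of its own lymphoma: a gene's own level cannot be compared between lymphomas, and wherever arrays of different lymphomas are set side by side, as in counts of groups that do not overlap, they are compared on that scale. Arrays have no read depth, and their number limits the precision. Some arrays stood apart from the rest over all genes. On the leading component of all genes tested, the arrays of ADR in 4936, the small cells in 5043 and the big cells in 5043 lay at 66.81, 58.47 and 66.32, and the highest of the other arrays at 5.94. The same 3 arrays had Xist, a transcript of the inactive X chromosome in female cells, at 5.70, 5.80 and 5.99 relative to the median of their lymphoma, and ADR with 4-OHT of lymphoma 4146 had it at -3.49. The big cells of 4936 and 4146 also had raised Xist, at 2.72 and 1.58. Whether these arrays hold the lymphoma of their label was not tested. Comparisons are also given without the first 3, and those with ADR and 4-OHT also without its array of 4146. Of 8 B-cell markers 7 were named, and Cd79a, Cd79b, Blnk, Pax5, Ebf1 and Cd22 passed the filter value on all 17 arrays and Ms4a1 on 15. Of 10 macrophage markers, Cd68 and Fcgr1 passed it on all 17 arrays, Csf1r on 16 and Lyz2 on 14. Itgam passed it on 10, Cd14 on 6 and Adgre1 on 3, while C1qa, C1qb and Mrc1 stayed under it on all. Of 8 fibroblast markers, Bgn passed it on 16 arrays, Col1a2 on 15, Dcn on 14 and Pdgfra on 11. Col3a1 passed it on 4, Col1a1 and Lum on 2 each, and Pdgfrb on none. Of 5 T-cell markers, Cd4 and Cd8a passed it on all 17 arrays, Cd3d on 10, Cd3e on 6 and Cd3g on 1.

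The promoters of these genes hold E2F-type letters at a higher share than promoters in general, and a few are printed here to show what such a stretch looks like. RefSeq windows of 300 bases (build GRCm38.p6) were found for 37 of the 45 genes. Searched on both strands, TTTCCCGC, TTTGGCGC, TTTCGCGC or TTTGCCGC was present in 16 of the 37 genes (43.2%), against 2.6% of 27025 genes of the whole table. The motif TTTGAA, the core of the CHR element of late cell-cycle promoters, was in 18.9% of the genes against 20.2% of all genes, and CCAAT was in 59.5% against 41.1%. The 250 bases that precede the start site follow for Mcm6 (chr1:128359706-128359955, minus strand), Dtl (chr1:191575545-191575794, minus strand), Gins3 (chr8:95633309-95633558, plus strand), Pold2 (chr11:5878257-5878506, minus strand) and Rfc4 (chr16:23127731-23127980, minus strand), each as 1 run on the gene's own strand with E2F-type matches in capitals:
Mcm6: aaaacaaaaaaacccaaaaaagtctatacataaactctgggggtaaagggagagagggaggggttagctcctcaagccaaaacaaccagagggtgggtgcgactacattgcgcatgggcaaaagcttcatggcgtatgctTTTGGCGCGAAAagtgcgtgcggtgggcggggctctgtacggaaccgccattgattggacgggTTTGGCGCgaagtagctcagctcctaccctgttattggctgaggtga
Dtl: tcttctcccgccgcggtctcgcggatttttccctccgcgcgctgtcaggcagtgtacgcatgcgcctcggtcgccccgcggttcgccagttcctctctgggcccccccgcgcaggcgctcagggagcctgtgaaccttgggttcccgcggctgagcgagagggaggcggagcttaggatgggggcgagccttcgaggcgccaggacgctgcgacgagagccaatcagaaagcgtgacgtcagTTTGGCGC
Gins3: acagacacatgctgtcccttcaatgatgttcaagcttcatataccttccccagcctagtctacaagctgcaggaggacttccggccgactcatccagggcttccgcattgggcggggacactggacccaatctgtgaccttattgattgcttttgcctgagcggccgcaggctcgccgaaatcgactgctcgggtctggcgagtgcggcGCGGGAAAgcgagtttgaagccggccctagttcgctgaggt
Pold2: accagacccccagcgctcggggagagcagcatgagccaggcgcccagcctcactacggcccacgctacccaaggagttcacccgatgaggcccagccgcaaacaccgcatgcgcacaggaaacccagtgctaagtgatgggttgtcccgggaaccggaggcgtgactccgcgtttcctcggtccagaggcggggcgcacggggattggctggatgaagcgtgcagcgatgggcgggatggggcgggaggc
Rfc4: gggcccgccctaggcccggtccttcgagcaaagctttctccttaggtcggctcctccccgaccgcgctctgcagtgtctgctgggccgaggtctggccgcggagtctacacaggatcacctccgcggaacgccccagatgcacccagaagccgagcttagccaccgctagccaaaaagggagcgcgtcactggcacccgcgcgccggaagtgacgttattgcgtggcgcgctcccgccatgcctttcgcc
Mcm6 is shown because it holds 3 matches, the first 2 of which overlap on opposite strands, and Dtl and Gins3 because they hold 1 match close to the start. Pold2 and Rfc4 are shown because both fell after ADR with 4-OHT and have no match in these bases. Of the other genes that fell, Pola1 had its match at -138 relative to the start, while the matches of Pold1, Pole2 and Lig1 began 40, 11 and 27 bases after it. In this build Gmnn lies at chr13:24751845-24761937, Gins1 at chr2:150909556-150931280, Pola1 at chrX:93304766-93632387, Pold1 at chr7:44532744-44548815, Pold2 at chr11:5872180-5878256, Pole2 at chr12:69201773-69228205, Rfc4 at chr16:23113948-23127730 and Lig1 at chr7:13277175-13311426, all protein-coding. The median difference between ADR with 4-OHT and untreated cells was -0.96 for the 16 genes with a match and -0.74 for the 21 without, a description with no test.

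After 5 days of ADR with 4-OHT, 8 of the 45 replication genes were lower than in untreated cells at an adjusted p under 0.05, and none was higher. They were Gmnn, Gins1, Pola1, Pold1, Pold2, Pole2, Rfc4 and Lig1, with fitted falls of 1.28 to 1.76 on the log2 scale, or 2.43-fold to 3.4-fold. Over all 11897 genes 2.05% were called lower and 0.891% higher in this comparison (limma with the lymphoma as a block, Benjamini-Hochberg over all genes). The fitted difference was below 0 for 44 of the 45 genes (49.7% of all genes), Orc2 being the exception, with a median of -0.94 against 0.00 over all genes. In 32 genes the 3 arrays of the treated group lay below all 3 untreated arrays, which 15.8% of all genes did, 34 were lower in every lymphoma (21.4%), and 38 had an unadjusted p under 0.05 (19.2%). RNA was taken from whole cultures, so fewer cells in S phase and less transcript per cell cannot be told apart.

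The size of the shift differed between lymphomas. The median over the 45 genes was -0.27 in lymphoma 4146, -0.83 in 4936 and -1.57 in 5043, and 34, 43 and 45 genes were below the untreated array of the same lymphoma. The array of lymphoma 4146 in this group is the one with low Xist, and without it the median was -1.24 and 31 genes were called. The counts with arrays left out cover the 45 genes alone, and the shares called over all genes are not given beside them. The count was 1, Pold2, without the treated array of 4936 or of 5043 or without the untreated array of either, and 3, Pola1, Pold1 and Pold2, without the untreated array of 4146. Without the 3 arrays high on the leading component, 8 genes were called, 7 of them among those named above. When only the 6 arrays compared entered the model, or when a lymphoma was left out, none was called.

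**Figure D1:**
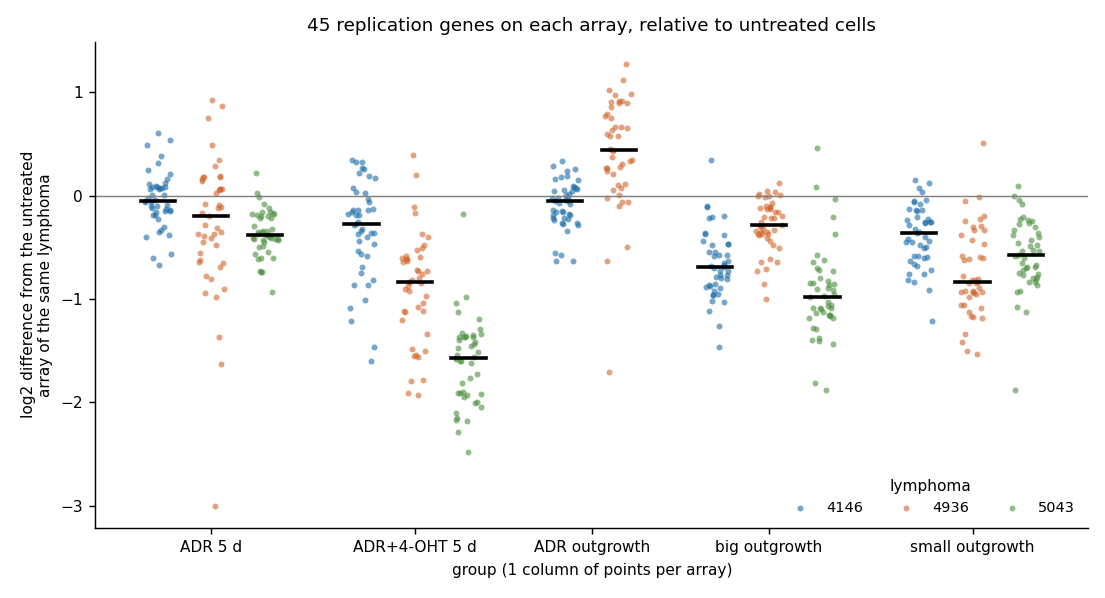
Log2 difference of each of the 45 replication genes (points) from the untreated array of the same lymphoma, with 1 column of points per array, coloured by lymphoma and ordered 4146, 4936, 5043 within a group, and a black bar at the median. The medians after ADR with 4-OHT are -0.27, -0.83 and -1.57, while the medians after ADR alone run from -0.05 to -0.38 and the outgrowth of ADR alone (4146 and 4936) lies at -0.05 and 0.45.

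Among origin recognition and licensing genes, Gmnn encodes geminin, the inhibitor of Cdt1 that prevents a second round of licensing. Its log2 signal was 10.57, 10.33 and 10.77 in untreated cells of lymphomas 4146, 4936 and 5043, 10.66, 10.36 and 10.28 after ADR, and 9.48, 9.50 and 8.85 after ADR with 4-OHT. The 3 arrays with 4-OHT lay below the 6 others, and Gmnn fell by 1.28 (SE 0.24, n = 3 against 3, adjusted p = 0.0245 by limma). The other loading factors moved less evenly. Cdc6, which recruits the helicase to the origin complex, differed by -1.16 (SE 0.35, adjusted p = 0.0921 by limma), with -0.40, -0.97 and -2.10 in the 3 lymphomas. Cdt1, its partner in loading, differed by -0.92 (SE 0.31), Orc6 by -0.71 and Orc1 by -0.69, all short of the threshold. Orc2, a core subunit of the origin recognition complex, was at 8.97, 8.58 and 9.21 in untreated cells and at 9.22, 8.98 and 9.03 with ADR and 4-OHT. The groups overlapped, and its difference was 0.16 (95% interval -0.35 to 0.67). Its sign depended on the probe set, with -0.02 and -0.33 for the other Orc2 probe sets.

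Mcm2 to Mcm7 form the ring-shaped helicase that is loaded at origins. All 6 were lower in every lymphoma and did not overlap between groups, and none passed the threshold: the differences were -0.84 for Mcm2, -1.05 for Mcm3, -0.66 for Mcm4, -1.15 for Mcm5, -0.97 for Mcm6 and -0.78 for Mcm7. The role medians were -0.24, -0.76 and -1.75 in lymphomas 4146, 4936 and 5043. Mcm6 gave the largest ratio of difference to error of the 6. Its log2 signal was 11.90, 12.35 and 12.41 in untreated cells and 11.84, 11.23 and 10.68 after ADR with 4-OHT, so that lymphoma 4146 differed by only -0.06 (adjusted p = 0.0791 by limma over the 3 lymphomas). Mcm5 had the largest difference of the 6 in a single lymphoma, with 11.90 in untreated and 9.86 in treated cells of 5043, beside 11.83 and 11.14 in 4146.

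Helicase activation brings Cdc45 and the GINS subunits to the loaded ring. Gins1 showed the largest difference of the 45 genes. Its signal was 9.45, 9.51 and 9.73 in untreated cells, 9.29, 8.57 and 8.98 after ADR, and 7.99, 7.96 and 7.44 after ADR with 4-OHT. Every array with 4-OHT was below every other array of the first 3 groups, and Gins1 fell by 1.76 (SE 0.31, adjusted p = 0.0209 by limma). Its partners differed less, by -0.79 for Gins2 (adjusted p = 0.0889 by limma) and -0.40 for Gins3 (adjusted p = 0.387 by limma). Cdc45, Cdc7 and Dbf4, the last being the activator of the Cdc7 kinase, were above the untreated array in lymphoma 4146, by 0.34, 0.19 and 0.32, and below it in the other 2. Mcm10, which joins in starting the fork, differed by -0.96 (SE 0.26, adjusted p = 0.0743 by limma).

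The polymerase and primase genes had the lowest role median, -1.23, and 4 of the 9 were called. Pola1, the catalytic subunit of DNA polymerase alpha, was at 9.12, 9.54 and 9.39 in untreated cells, 9.02, 8.85 and 8.77 after ADR, and 7.90, 7.63 and 7.57 after ADR with 4-OHT. Its fall of 1.65 (SE 0.25, adjusted p = 0.0133 by limma) was seen in each lymphoma, by 1.21, 1.91 and 1.82. Pold1, the catalytic subunit of polymerase delta, was intermediate after ADR alone, with 10.37, 10.84 and 10.93 in untreated cells, 9.81, 9.47 and 9.99 after ADR, and 9.51, 8.91 and 8.92 with 4-OHT. Against untreated cells it fell by 1.60 with 4-OHT (SE 0.24, adjusted p = 0.0119 by limma), and its difference with ADR alone was -0.95 (SE 0.24, adjusted p = 0.291 by limma). Pold2, the second subunit of polymerase delta, had the smallest error of the 45 genes. It was at 10.26, 10.43 and 10.34 in untreated cells, 10.11, 9.53 and 9.96 after ADR, and 8.66, 8.92 and 8.97 after ADR with 4-OHT, and it fell by 1.49 (SE 0.17, adjusted p = 0.00468 by limma). Unlike for most of the other genes, its difference was largest in lymphoma 4146, at -1.60, and smallest in 5043, at -1.37. Pole2, an accessory subunit of polymerase epsilon, went from 8.96, 9.00 and 9.63 to 7.95, 8.17 and 7.44 and fell by 1.34 (SE 0.29, adjusted p = 0.0362 by limma). It was not called without the 3 arrays high on the leading component. Of the uncalled genes of this role, Prim1, the catalytic primase subunit, differed by -1.17 (adjusted p = 0.0718 by limma), and Prim2, its partner, by -1.23 with the widest error of the 45 (SE 0.61). The lowest value of Prim2, 7.39, was on the ADR array of 4936 that stood apart, against 10.39 in the untreated cells of that lymphoma.

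**Figure D2:**
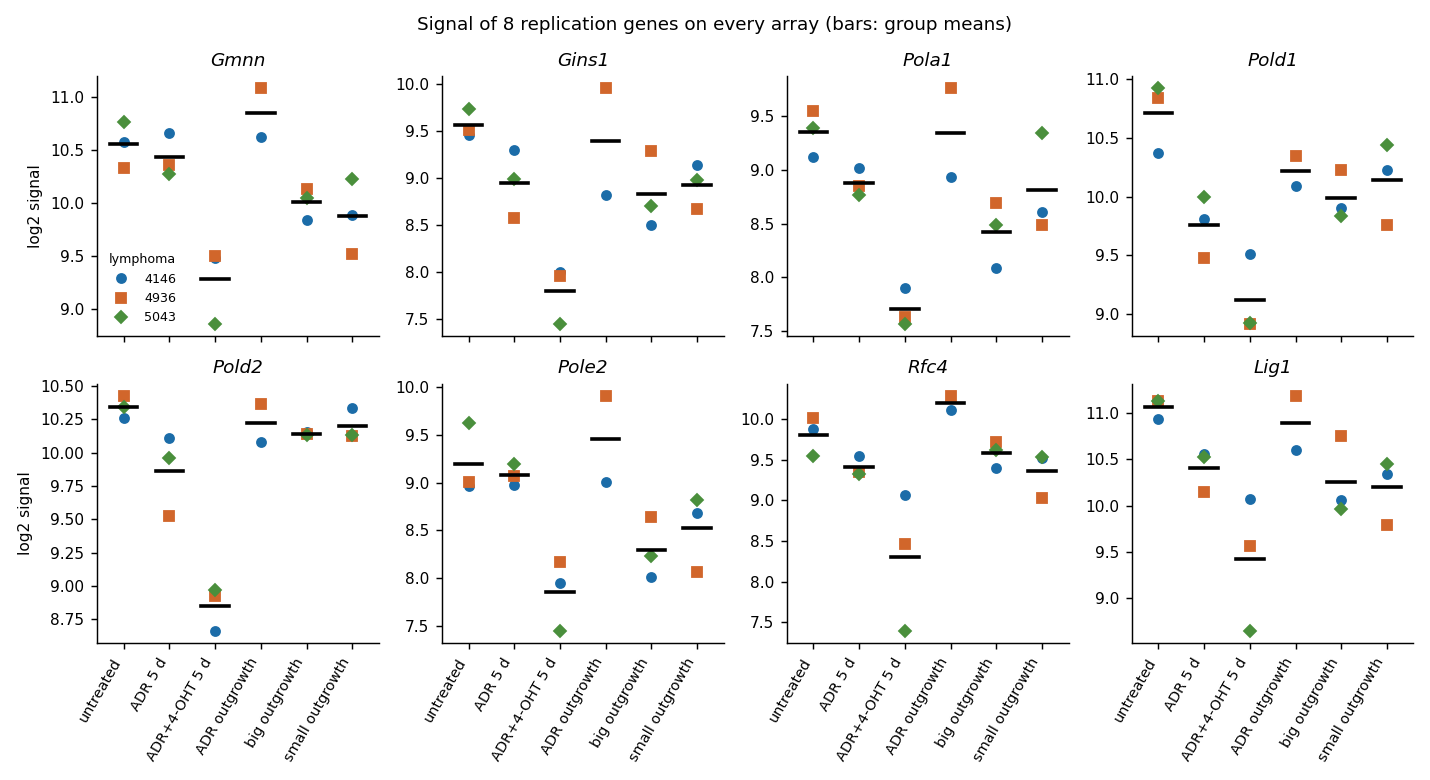
Log2 signal of the 8 called genes on all 17 arrays, by group, with 1 marker shape and colour per lymphoma and a black bar at the group mean; the vertical axes differ between genes and do not start at 0. The 3 arrays of ADR with 4-OHT are below the 3 untreated arrays in each of the 8 genes, and Pold2 is back between 10.13 and 10.34 in the small outgrowth.

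Pcna, the sliding clamp, and the Rfc1 to Rfc5 loader that opens it gave 1 call in 6. Rfc4, a small loader subunit, was at 9.87, 10.01 and 9.54 in untreated cells, 9.55, 9.36 and 9.32 after ADR, and 9.06, 8.47 and 7.39 after ADR with 4-OHT, and fell by 1.50 (SE 0.31, adjusted p = 0.0288 by limma). Pcna differed by -1.02 (SE 0.25, adjusted p = 0.0534 by limma) and was lower in every lymphoma, by 0.58, 1.04 and 1.44. Rfc1, Rfc3 and Rfc5 were above the untreated array in lymphoma 4146 and below it in the other 2.

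The 2 genes that finish lagging-strand fragments did not move alike. Lig1, the ligase that seals them, was at 10.93, 11.13 and 11.13 in untreated cells, 10.56, 10.15 and 10.53 after ADR, and 10.07, 9.57 and 8.65 after ADR with 4-OHT, and fell by 1.63 (SE 0.34, adjusted p = 0.0308 by limma). Fen1, the nuclease that trims their flaps, was at 10.60, 10.43 and 11.21 in untreated cells and 10.77, 10.62 and 10.23 with 4-OHT. Its groups overlapped, and its difference of -0.21 (95% interval -0.84 to 0.43) changed sign without an array of lymphoma 5043. The difference between these genes was not tested.

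The 3 subunits of replication protein A, which coats single-stranded DNA, differed by -0.74 for Rpa1 (SE 0.18, adjusted p = 0.0556 by limma), -0.66 for Rpa2 and -0.63 for Rpa3. Rpa1 was at 12.11, 12.14 and 12.68 in untreated cells and 11.74, 11.50 and 11.49 with 4-OHT, with no overlap. Of the genes that keep stalled forks stable, Wdhd1, a link between helicase and polymerase alpha, was at 9.47, 9.07 and 10.00 in untreated cells and 8.72, 8.45 and 8.08 with 4-OHT, a difference of -1.09 (SE 0.34, adjusted p = 0.102 by limma). Timeless, Tipin and Clspn of the same role differed by -0.95, -0.82 and -0.94. Chaf1b, a chromatin assembly subunit, was at 7.69, 7.61 and 7.86 in untreated cells and 7.21, 7.45 and 6.44 with 4-OHT (difference -0.69, SE 0.25, adjusted p = 0.161 by limma). Dtl, which targets Cdt1 for degradation, differed by -0.92 and was higher by 0.32 in lymphoma 4146.

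**Figure D3:**
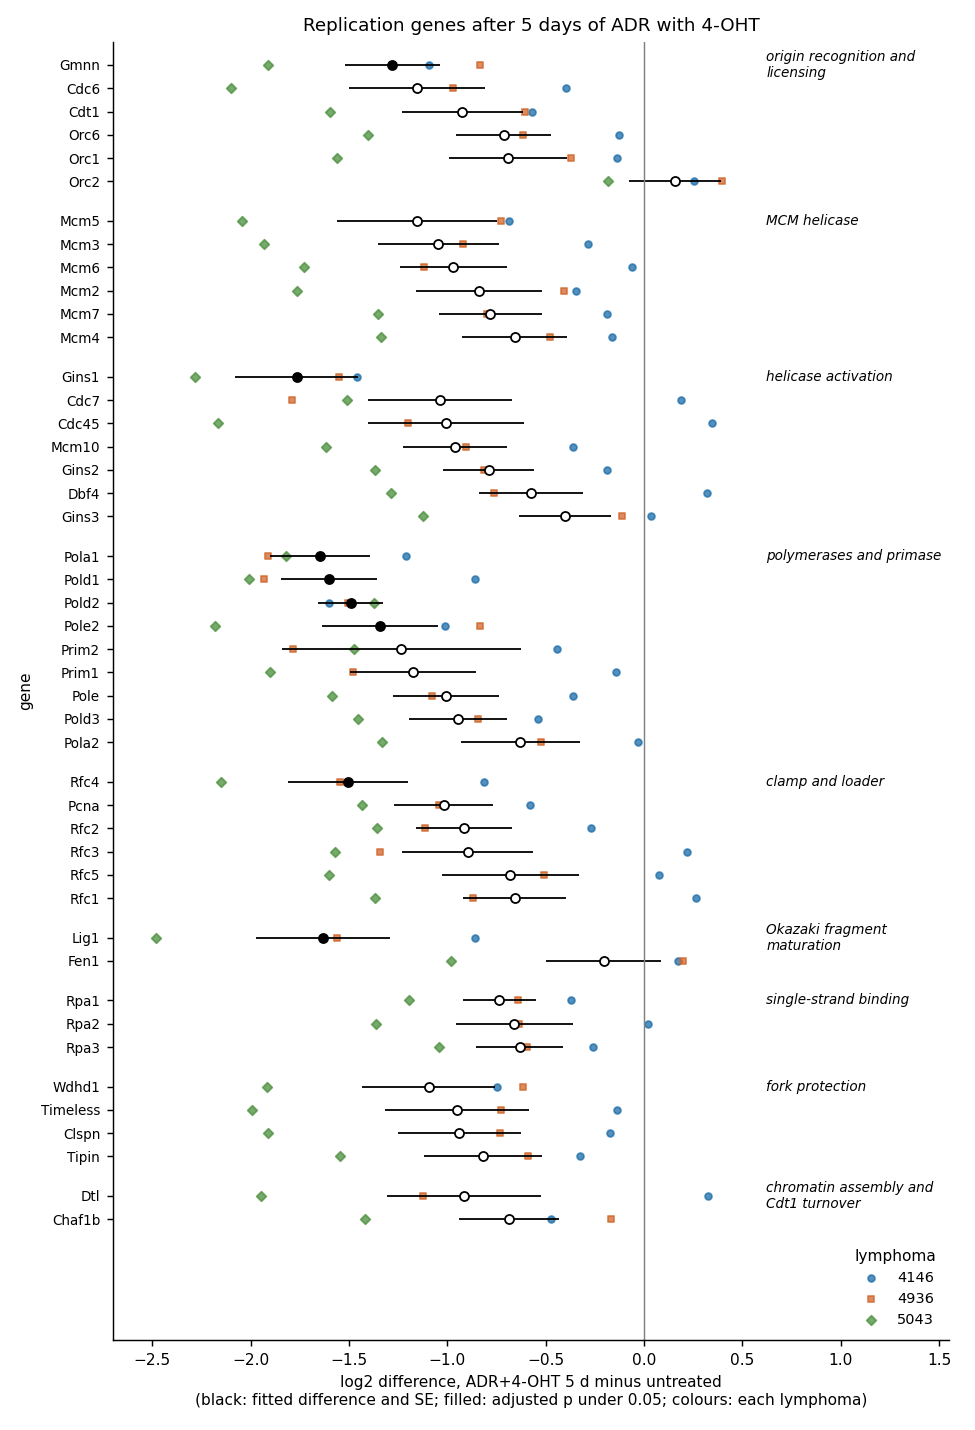
Log2 difference between ADR with 4-OHT for 5 days and untreated cells for the 45 genes, grouped by role; black circles and bars are the fitted difference and its SE, filled where the adjusted p is under 0.05, and coloured markers are the differences in each lymphoma. All fitted values except that of Orc2 (0.16) lie below 0, and the values of lymphoma 5043 lie furthest to the left for most genes.

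These genes can also be read from further probe sets. Of 90 probe sets of the 45 genes that passed the filter, 87 had a difference below 0 in this comparison and 12 were called lower, from 10 genes. In the same fit of 24682 probe sets 49.6% were below 0 and 1.15% were called lower. The 45 that had not been chosen to represent a gene had a median of -0.92. Both probe sets of Pold1 (-1.60 and -1.59) and both of Rfc4 (-1.50 and -1.37) were called, and probe sets not chosen added Clspn (-1.14) and Pold3 (-1.17).

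With ADR alone the genes stayed closer to untreated cells. None of the 45 was called, as none of the 11897 genes was (0.0%), with 5 of 45 at an unadjusted p under 0.05 against 11.3% of all genes. Differences were below 0 for 38 genes (47.7% of all genes), and in 9 the ADR arrays lay below the untreated arrays (10.4%). The median difference was -0.21, and -0.05, -0.20 and -0.38 in the 3 lymphomas. The array of 4936 in this group is one of those that stood apart, and without the 3 such arrays the median was -0.07. The polymerases and primase had the lowest role median, -0.47, with 5 of 9 genes lower in every lymphoma, and the other role medians lay between -0.26 and 0.02. Orc2 again had the highest value, 0.56, and was higher in every lymphoma.

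Adding 4-OHT to ADR gave values below 0 for all 45 genes (53.0% of all genes), but none was called, and neither was any of the 11897 genes (0.0%). The median difference between the cultures with and without 4-OHT was -0.65, against -0.02 over all genes, and 27 of the 45 genes had an unadjusted p under 0.05, as 12.5% of all genes did. The 3 arrays with 4-OHT lay below the 3 arrays without in 27 genes, which 13.5% of all genes did, and 34 were lower in every lymphoma (22.0% of all genes). Again the lymphomas differed, with medians of -0.27, -0.61 and -1.20. Pold2 had the lowest adjusted p, 0.127 by limma, at -1.01 (SE 0.17), followed by Gmnn at -1.15 (SE 0.24) and Pola1 at -1.18 (SE 0.25), both with an adjusted p of 0.165 by limma. Pole2 showed the largest difference, -1.23 (SE 0.29, adjusted p = 0.183 by limma). Pola1 was lower by 1.11, 1.22 and 1.20 in the 3 lymphomas, and Gins1 differed by -1.15, Rfc4 by -1.10, Lig1 by -0.98 and Pold1 by -0.65. Without the 3 arrays that stood apart the median was -0.78, and without ADR with 4-OHT of 4146 it was -0.99. The comparisons with untreated cells and with ADR alone share the arrays with 4-OHT.

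Markers of macrophages and fibroblasts also differed between these arrays. The median difference from untreated cells over the 7 macrophage markers tested was 2.17 with ADR (0 called) and 1.54 with ADR and 4-OHT (1 called, higher), and the B-cell list stood at -0.21 and 0.10 (0 called in both). The median log2 level over the 10 macrophage markers was 3.83 to 4.79 on the untreated arrays, 5.19 to 9.14 with ADR and 4.91 to 5.36 with ADR and 4-OHT. The 9.14 was on the ADR array of 4936 that stood apart, beside 5.22 in 4146 and 5.19 in 5043. Over the 8 fibroblast markers the level with ADR was 6.13 in 4936, 4.97 in 4146 and 4.51 in 5043. Marker differences without the ADR array of 4936 are not given here. Over the 5 fibroblast markers tested the median difference from untreated cells was 2.17 with ADR and 0.92 with ADR and 4-OHT, none of the 5 being below 0 in either, and that between ADR with 4-OHT and ADR alone was -1.88, with all 5 below 0 (0 called in each). The macrophage list stood at -0.48 in that last comparison. The gap between 3′ and 5′ probe sets of Actb, a sign of RNA quality, was 1.39 to 1.65 in untreated cells, 0.56 to 1.17 with ADR and 1.17 to 1.51 with ADR and 4-OHT. The 0.56 was again on the ADR array of 4936, beside 1.08 in 4146 and 1.17 in 5043. For Gapdh the same gap was 0.48 to 0.54 in untreated cells, 0.37 to 0.50 with ADR and 0.42 to 0.57 with ADR and 4-OHT. The part of any of these in the values of the replication genes was not tested.

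**Figure D4:**
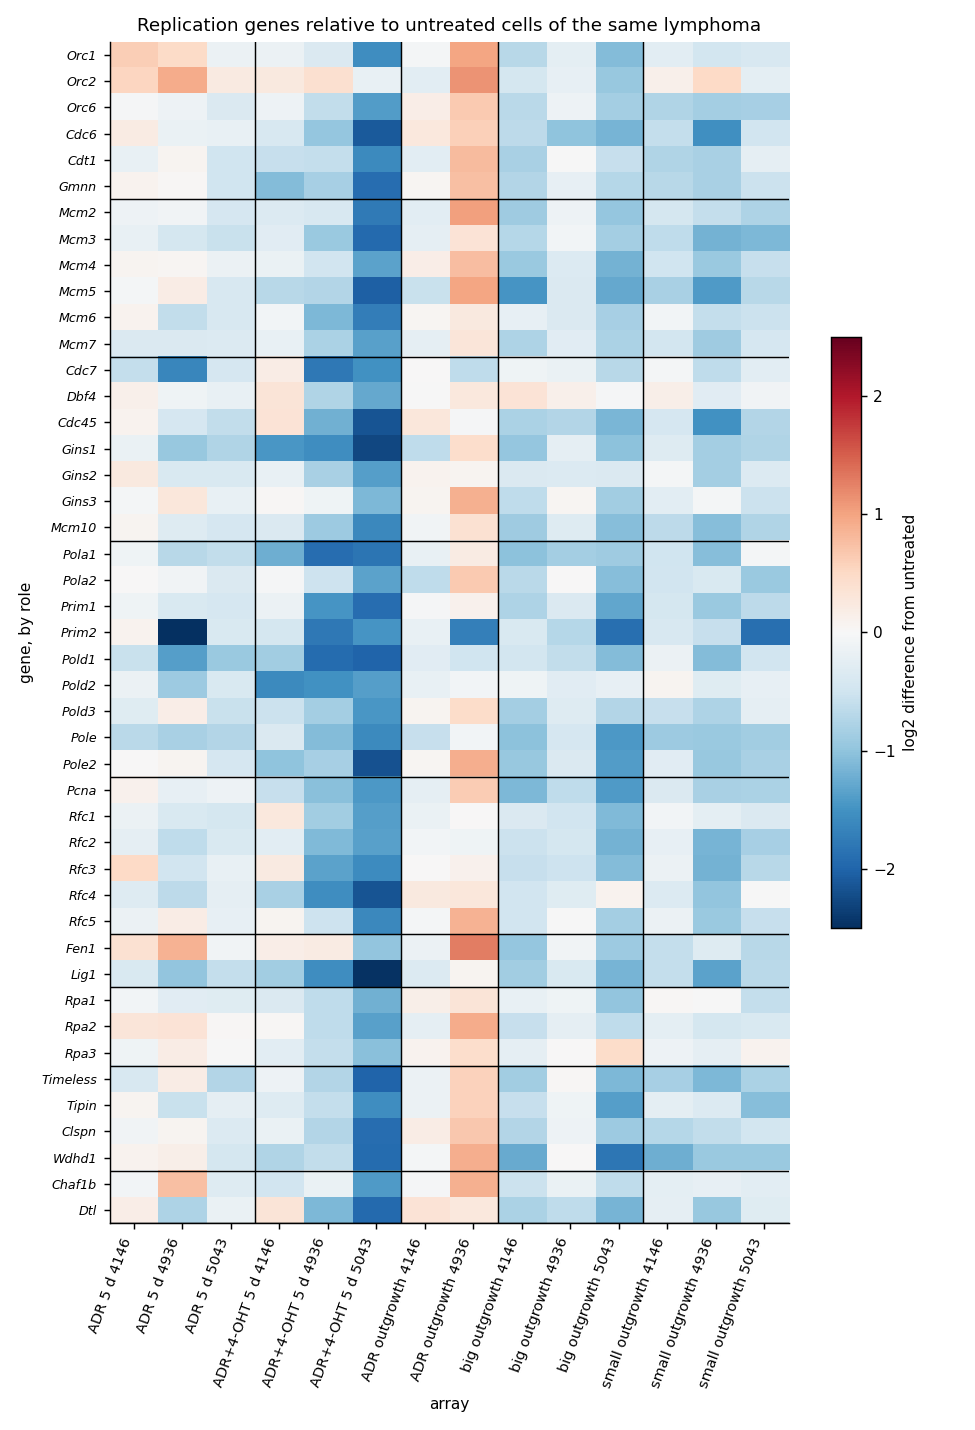
Log2 difference of each of the 45 genes (rows, by role) from the untreated array of the same lymphoma, for the 14 treated or outgrown arrays (columns); blue is lower, red is higher, and the scale ends at 2.5 in each direction. The 4-OHT column of lymphoma 5043 is blue in all 45 rows, and the column of the ADR outgrowth of 4936 is mostly red.

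In the small cells that grew out after ADR with 4-OHT, 3 of the 45 genes were higher than at the end of treatment: Pola1, Pold1 and Pold2. Over all genes 2.66% were called higher and 2.39% lower in this comparison. Pold2 was at 10.34, 10.13 and 10.13 in the small outgrowth, a rise of 1.35 (SE 0.17, adjusted p = 0.0098 by limma), and it rose in each lymphoma, by 1.68, 1.20 and 1.16. Pola1 was at 8.61, 8.49 and 9.34 and rose by 1.11 (SE 0.25, adjusted p = 0.0323 by limma). Pold1 was at 10.23, 9.76 and 10.44 and rose by 1.03 (SE 0.24, adjusted p = 0.0356 by limma). In all 3 the small outgrowth lay above the treated arrays with no overlap. Counts with arrays left out again cover the 45 genes alone, with no share over all genes beside them. Pold2 alone was called without the 3 arrays that stood apart, and also without the treated array of 4936 or of 5043 or the small outgrowth of 5043. None was called without the small outgrowth of 4146, without any 1 lymphoma or with only the 6 compared arrays in the model, and 10 were called without the treated array of 4146.

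In this comparison 4 of the 45 genes were below 0, against 48.9% of all genes, and 10 had an unadjusted p under 0.05 (23.4%). In 7 genes the small cells lay above the treated arrays with no overlap (16.0%). Gins1 differed by 1.13 (SE 0.31, adjusted p = 0.0597 by limma) and Rfc4 by 1.06 (SE 0.31, adjusted p = 0.0674 by limma). Gmnn, Pole2 and Lig1, called lower at the end of treatment, differed by 0.60, 0.67 and 0.77. Over the 45 genes the median was 0.31, which came from lymphoma 5043: the medians were -0.17, 0.11 and 1.13 in lymphomas 4146, 4936 and 5043. The small outgrowth of 5043 is one of the arrays that stood apart, and without those 3 arrays the median was 0.15. Without ADR with 4-OHT of 5043 it was 0.00. By role, the medians ran from 0.17 for fork protection and 0.19 for the MCM helicase to 0.50 for polymerases and primase and 0.54 for single-strand binding. In 11 genes the small cells were higher in every lymphoma, a share near the 21.5% of all genes. Macrophage markers had the opposite sign, with a median of -1.48 over 7 genes tested, 6 of them below 0 and 1 called lower. Fibroblast markers had a median of 0.53 over 5 genes tested, with 1 below 0 and 0 called. The part of either list in these values was not tested. This comparison and the previous ones share the treated arrays.

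Against untreated cells, the small outgrowth stayed lower in most of these genes without a call. None of 45 passed (0.0% of all genes did), with 17 at an unadjusted p under 0.05 against 8.3% of all genes. Differences were below 0 for 44 genes (51.3% of all genes). The median was -0.60, with -0.36, -0.84 and -0.57 in the 3 lymphomas, and 40 genes were lower in every lymphoma, which 18.3% of all genes were. In 26 genes the groups did not overlap, against 9.2% of all genes. Wdhd1 had the largest difference, -1.02 (SE 0.34), and Orc6 and Pole, the catalytic subunit of polymerase epsilon, had the lowest adjusted p-values, 0.508 by limma, at -0.81 (SE 0.24) and -0.90 (SE 0.27). Orc6 was lower by 0.76, 0.84 and 0.84 and Pole by 0.91, 0.94 and 0.86 in the 3 lymphomas. Pold2, by contrast, differed by -0.15 (95% interval -0.51 to 0.22), and its groups overlapped. Without the 3 arrays that stood apart the median was -0.77.

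The big cells of the same cultures also had values under those of untreated cells: the median was -0.65, and 43 of the 45 genes were below 0 (54.1% of all genes). None of the 45 was called, while 0.412% of all genes were, and 26 had an unadjusted p under 0.05 (16.3% of all genes). In 34 genes the groups did not overlap, against 16.7% of all genes, and 38 were lower in every lymphoma (23.1%). The medians were -0.69, -0.28 and -0.98 in the 3 lymphomas. Without the 3 arrays that stood apart, among them the big cells of 5043, the median was -0.63 and none was called. Pcna had the lowest adjusted p, 0.0952 by limma, at -1.06 (SE 0.25), with 12.36, 12.49 and 12.86 in untreated cells and 11.24, 11.86 and 11.45 in big cells. Pola1 differed by -0.93 (SE 0.25, adjusted p = 0.13 by limma), by 1.03, 0.86 and 0.90 downward in the 3 lymphomas. Pold2 differed by -0.20. Fitted on their own, probe sets not chosen for Clspn (-1.49, adjusted p = 0.022 by limma) and Mcm3 (-1.39, adjusted p = 0.0488 by limma) were called lower, as 0.369% of all probe sets were. In this group 4 of the 5 fibroblast markers tested were called higher than in untreated cells, with a median difference of 3.73, and the macrophage markers had a median of 1.34. Their part in the lower values of the replication genes was not tested.

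Big and small cells did not differ in 1 direction. None of the 45 genes passed (0.0% of all genes did), 1 had an unadjusted p under 0.05 against 10.4% of all genes, and the median was -0.05. In lymphomas 4146 and 5043 the big cells had the lower values, with medians of -0.30 and -0.37 and 42 and 41 genes lower. In 4936 they had the higher values, with a median of 0.49 and 4 genes lower. The values in big and small cells of lymphoma 5043 both come from arrays that stood apart, and without the 3 such arrays the median was 0.09. The fibroblast and macrophage markers had higher values in big cells, with medians of 3.04 over 5 and 1.18 over 7 genes tested, none below 0 and 0 called, and their part in these values was not tested. Orc2 was the gene with the lowest adjusted p, 0.341 by limma, at -0.66 (SE 0.23), and was lower in the big cells of every lymphoma, by 0.56, 0.71 and 0.71.

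The outgrowth of cultures that had received ADR alone was near or above untreated cells, on 2 arrays. None of the 45 genes was called (0.0% of all genes were), and none had an unadjusted p under 0.05, as 4.49% of all genes did. The median was 0.09, with -0.05 in lymphoma 4146 and 0.45 in 4936, and 15 genes were higher in both lymphomas against 21.0% of all genes. In 5 genes the values were lower in both (20.1% of all genes), among them Pold1, by 0.28 and 0.50. Prim2 had the lowest fitted difference, -1.08. Set beside this outgrowth, the small cells that had received 4-OHT had values below 0 for 43 of the 45 genes (50.6% of all genes), with a median of -0.61, and medians of -0.22 and -1.27 in lymphomas 4146 and 4936. None was called (0.0% of all genes were), and 17 had an unadjusted p under 0.05 against 13.4% of all genes. In 32 genes the 2 groups did not overlap, against 17.2% of all genes, and 36 were lower in both lymphomas (27.0%). Orc6 had the lowest adjusted p, 0.243 by limma, at -1.11 (SE 0.27), and Wdhd1 the largest difference, -1.27 (SE 0.39). Without the 3 arrays that stood apart, among them the small cells of 5043, the median of small cells against this outgrowth was -0.79, that of the outgrowth against untreated cells was 0.049, and none was called in either. The small cells were sorted by size and the ADR outgrowth was not, which cannot be told apart from the effect of 4-OHT here. In the ADR outgrowth against untreated cells, the B-cell, macrophage and fibroblast markers had medians of -0.75, 0.70 and -0.01. In small cells against this outgrowth the 3 medians were 0.71, -0.42 and 0.77. None of these markers was called in either, and their part in the values of the replication genes was not tested. A test of whether the 4-OHT difference after outgrowth differed from that at 5 days called none of the 45 genes (0.0% of all genes, by limma). At an unadjusted p under 0.05 there was 1 of 45, Pold2, against 1129 of the 11897 genes tested.

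**Figure D5:**
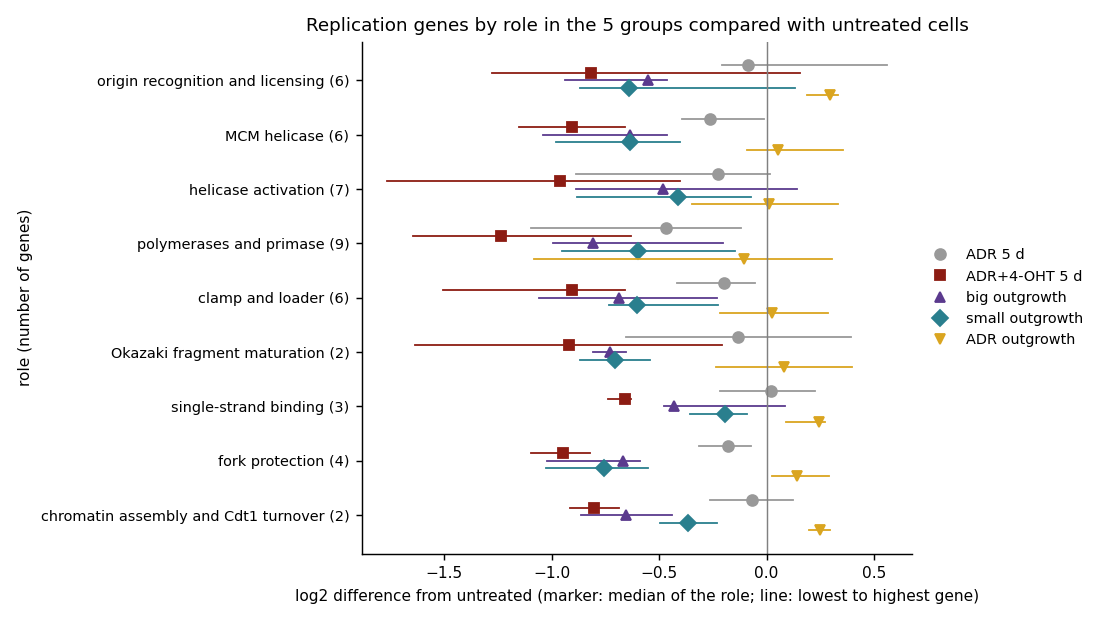
Median log2 difference from untreated cells by role (markers) and the lowest and highest gene of the role (lines) in the 5 other groups; the number of genes is beside each role. The square markers, ADR with 4-OHT for 5 days, have the lowest median in each role, down to -1.23 for polymerases and primase, and both outgrowths of these cultures lie between them and 0.

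Over the 17 arrays most of these genes varied together. The correlation of each gene with the median of the other members, on deviations from the lymphoma means, had a median r of 0.92 and was at least 0.8 for 37 of the 45. Among all genes tested 2.05% reached 0.8 against the median of the 45. Mcm10 (0.97), Mcm7 (0.97) and Clspn (0.96) followed the rest most closely. Prim2 (0.27), Orc2 (0.35), Pold2 (0.54) and Cdc7 (0.56) did so least. The points share arrays and normalisation, so these values describe and do not test. Without the 4 arrays in doubt the median r was 0.94, with 38 of 45 genes at 0.8 or more.

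Other replication genes, listed by name and all 32 tested, had a median of -0.65 after ADR with 4-OHT against untreated cells. Differences were below 0 for 29 of the 32 (49.7% of all genes). Of the 32, 2 were called lower (2.05% of all genes) and none higher (0.891%). Rnaseh2a, the catalytic subunit of the RNase that removes RNA from DNA, fell by 1.20 (SE 0.13, adjusted p = 0.00468 by limma), and Top2a, the topoisomerase that untangles daughter strands, fell by 1.46 (SE 0.30, adjusted p = 0.0296 by limma). Mcm9, a helicase relative that is not part of the loaded ring, had the highest value, 1.34 (SE 0.44, adjusted p = 0.121 by limma). In the small outgrowth against the end of treatment Rnaseh2a rose by 1.20 (SE 0.13, adjusted p = 0.0098 by limma), the helicase gene Pif1 rose by 1.78 (SE 0.35, adjusted p = 0.0218 by limma) and Mcm9 fell by 2.11 (SE 0.44, adjusted p = 0.0248 by limma). Over all genes 2.66% were called higher and 2.39% lower there. No other comparison gave a call among these 32.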

How the data were processed

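Total RNA of 17 arrays in 6 groups was analysed; 1 of 18 columns held no values. The authors deposited log2 signal per probe set, made with RMA and Partek per the submitters' processing notes; versions and the centring step are not given in the sources used here. The platform annotation tied 34958 of 45101 probe sets to 1 symbol and 932 to several, giving 18194 genes. Where a gene had several probe sets, the one brightest on average (17 arrays) stood for it. Genes at or above 4.86, the median of all values, on at least 3 arrays were tested (11897).

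One linear model was fitted over all groups with limma 3.58.1 in R 4.3.3, with the lymphoma as an additive block because the labels state that each lymphoma received both treatments (9 residual and 2.53 prior degrees of freedom). Tests were two-sided with Benjamini-Hochberg adjustment over all genes and a threshold of 0.05. The procedure was tested on simulated data. Genes described in full were those past the threshold, the gene with the largest ratio of difference to error in each role, those against the direction of their role, and Mcm2 to Mcm7. The members and lists were chosen with earlier results of these data known. Alternatives covered the block, filter, probe choice, scaling, array weights and left-out arrays. Promoter windows came from RefSeq (GRCm38.p6).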

Additional observations from a re-analysis of the deposited data

How the results depend on the processing

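The count of 8 replication genes called lower after ADR with 4-OHT against untreated cells stayed within 1.5 times under no filter, a stricter filter, the mean over probe sets, quantile normalisation, median centring, a trended robust fit and without the 3 arrays that stood apart and shared at least 7 of the 8 genes. It was 17 with no replicate block, 42 with array weights (whose fit stopped before its tolerance), 31 without those 3 arrays and ADR with 4-OHT of 4146, and 0 with only the compared arrays in the model. Leaving out a lymphoma gave 0 in each case, and leaving out 1 array gave 1 to 31. All counts of this section cover the replication genes alone, with no share over all genes beside them. They therefore cannot show whether a setting changed the calls of these genes more than those of other genes. For ADR with 4-OHT against ADR alone, where 0 were called, 1 was called with no replicate block and 33 with array weights. For the small outgrowth against ADR with 4-OHT, where 3 were called, the count was 15 with array weights, 1 without the 3 arrays and 0 with only the compared arrays in the model, 0 without any lymphoma, and 0 to 10 with 1 array left out. For the big outgrowth against untreated cells, 23 were called with array weights and 1 without either ADR outgrowth array, against 0. With no replicate block 4 were called for the small outgrowth against ADR with 4-OHT, Gins1 being added to the 3. The difference of Orc2 after ADR with 4-OHT turned to -0.066 with the mean over probe sets and -0.012 with array weights, and ran from -0.061 (without untreated 4936) to 0.34 with 1 array or lymphoma left out. That of Fen1 ran from -0.49 to 0.18 (without lymphoma 5043), with 0.0013 without untreated 5043 and 0.074 without treated 5043. The cause of these changes was not tested. Fits without a lymphoma or of the compared arrays alone also hold fewer arrays, and the part of this in the counts was not tested either. With 3 arrays a group at most, the number of arrays limits what could be called.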
